A study of Mus musculus with 3 samples.

Results

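The 10 genes of matrix breakdown and its control described here were followed in stromal cells of mouse lymph nodes (LNs). They are the matrix metalloproteinases Mmp2, Mmp3, Mmp9 and Mmp14, the ADAMTS proteases Adamts1, Adamts4 and Adamts5, and the tissue inhibitors Timp1, Timp2 and Timp3. The members were chosen by their gene symbols, with earlier results of these data known. These 10 rows were found among the 51912 genes of each library. Matrix metalloproteinases and ADAMTS enzymes are zinc proteases that cut collagens, proteoglycans and other proteins outside the cell. Most are made as inactive proenzymes. TIMPs block their active sites, and each inhibitor has its own range of targets. In LNs, reticular cells build a network of collagen fibres along which lymphocytes move.

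The 3 single-cell libraries were made with the 10x Genomics 3' kit from live PDPN+ CD31- CD45- TdTomato+ LN cells of C57BL/6 mice. The mice carried a Cxcl13-Cre/tdTomato transgene. PDPN is a glycoprotein of LN stroma, and the gate on CD31 and CD45 is meant to leave out endothelial and blood cells. All mice received antigen immune complexes (IC). The 2-IC group (2 libraries, replicates 1 and 2) received the first IC 7 days and the second 24 h before analysis, and the 1-IC group (1 library) received 1 IC 24 h before analysis. The titles give both 2-IC libraries the same treatment but add the tags Biotin24h and Biotin7d, which name different times, and each comparison of 1-IC with 2-IC rests on the shared wording. The LNs of several mice were pooled for each condition, and the age of the mice was not given in the sources used here. Cells were sorted on TdTomato, and Cxcl13 RNA itself was no criterion. The tissue was digested with collagenase, dispase and DNase at 37 °C before sorting. A library was taken as 1 replicate, and its cells were not.

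The files held 5486 barcodes with 37162530 counts of unique molecular identifiers (UMIs, 1 for each captured RNA molecule), and 1526, 391 and 326 barcodes were retained in replicates 1 and 2 of the 2-IC group and in the 1-IC library. Wherever 3 values are given, they stand in this order of libraries. The retained cells held a median of 4700.5, 14732 and 5979 UMIs, so that 2-IC replicate 2 held the most UMIs per cell. Blood cells were still present after the sort. Of 4513 barcodes within the limits on genes and mitochondrial UMIs, 2243 were left once those with a UMI of a contaminant gene were removed. Among the 4513 were 513 B cell barcodes (Cd79a and Cd79b, no Col1a2 or Col3a1). A further group was 31 myeloid barcodes (Lyz2 and Tyrobp, no Col1a2 or Col3a1). The 2-IC libraries shared 76 barcodes, in 75 of which the smaller profile held under 5% of the UMIs of the larger. Retained cells were assigned to stromal types by at least 1 UMI of a gate gene, taken in this order: follicular dendritic cells (FDC, Cr2), marginal reticular cells (MRC, Madcam1), interfollicular reticular cells (IFRC, Tnfsf11), T-B reticular cells (TBRC, Fmod) and medullary reticular cells (MedRC, Inmt). The FDC gate held 230 cells, the MRC gate 83, the IFRC gate 593, the TBRC gate 256 and the MedRC gate 633. A further 448 retained cells had no UMI of a gate gene.

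The gates were checked against markers that had not defined them. All 6 FDC markers (such as Fcer2a, Fcgr2b and Coch) were higher in the FDC gate, both TBRC markers (Ccl19, Ccl21a) in the TBRC gate and all 3 MedRC markers (Nr4a1, Cyp2f2, Stc1) in the MedRC gate. Some of these markers were not specific to their gate. Of the FDC markers, Coch, Clu and Mfge8 were also higher in the MRC gate. Stc1 was also higher in the IFRC gate (log2 fold change 1.49, edgeR adjusted p = 7.56e-04). Its mean was 409 CPM there and 367 CPM in the MedRC gate. The MRC genes Mfge8 and Cxcl13 were higher in the MRC gate but also in the FDC gate, and of Ch25h and Tnfsf13b only 1 was higher in the IFRC gate. Ch25h was highest in the MRC gate (log2 fold change 2.28, SE 0.24). The gates also overlapped. A gate gene of another type was found in 164 of the 230 cells of the FDC gate and 56 of the 83 cells of the MRC gate, and 406 of the 593 IFRC cells and 156 of the 256 TBRC cells held Inmt. The names below thus stand for gates, not for pure cell types.

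Of the 10 members, 6 had an entry in the RefSeq promoter table (GRCm38.p6). Stretches before the transcription start are shown for Mmp3 and Timp3, which lay at opposite ends in the FDC gate, and for Adamts1, which was highest in the MedRC gate. Capitals mark the AP-1 motif TGANTCA and the TATA motif TATAAA, searched on both strands. The stretches lie on the plus strand at chr9:7445572-7445821 for Mmp3, on the plus strand at chr10:86300162-86300371 for Timp3 and on the minus strand at chr16:85803114-85803363 for Adamts1. The Timp3 stretch ends 40 bases earlier than the table, at the annotated start of the gene.
Mmp3: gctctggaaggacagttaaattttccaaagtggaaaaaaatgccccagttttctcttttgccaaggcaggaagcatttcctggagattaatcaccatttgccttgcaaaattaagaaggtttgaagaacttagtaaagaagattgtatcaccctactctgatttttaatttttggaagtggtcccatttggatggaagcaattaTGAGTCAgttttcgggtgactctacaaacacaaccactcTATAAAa
Timp3: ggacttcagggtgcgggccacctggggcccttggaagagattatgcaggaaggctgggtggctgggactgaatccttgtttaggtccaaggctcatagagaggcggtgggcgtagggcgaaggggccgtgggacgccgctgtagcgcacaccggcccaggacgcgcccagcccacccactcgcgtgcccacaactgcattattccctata
Adamts1: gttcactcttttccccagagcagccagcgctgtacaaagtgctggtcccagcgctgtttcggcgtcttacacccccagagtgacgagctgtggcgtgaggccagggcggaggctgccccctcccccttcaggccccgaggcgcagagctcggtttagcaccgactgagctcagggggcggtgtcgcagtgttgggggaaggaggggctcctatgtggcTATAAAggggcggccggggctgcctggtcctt
Among the 6 members, only Mmp3 held the AP-1 motif in the 250 bases before the RefSeq start, 46 to 40 bases before it. That motif was found in 6.75% of all 32851 promoters. In the same window TATAAA stood before Mmp3 and Adamts1 and in 12.4% of all promoters. The GC box GGGCGG stood there before Adamts1 3 times, before all 6 members except Mmp3, and in 32.7% of all promoters. The GC box of Timp3 lies in the 40 bases left out above. The window of Timp2 lies inside the gene as annotated by GENCODE. These matches are letters in a window and no measure of binding.

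By the GENCODE annotation of GRCm38, Mmp2 lies at chr8:92827291-92853420, Mmp14 at chr14:54431612-54445364, Mmp3 at chr9:7445822-7455975, Mmp9 at chr2:164940780-164955850, Adamts4 at chr1:171250421-171260637, Timp1 at chrX:20870166-20874735 and Timp3 at chr10:86300372-86349506, all on the plus strand. Adamts1 at chr16:85793827-85803113, Adamts5 at chr16:85856173-85901828 and Timp2 at chr11:118301069-118355740 lie on the minus strand. UMIs were counted over whole genes, so that exons of a gene were not told apart.

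For the main comparison, UMIs were summed per gate and library (15 sums), and each gate was compared with the mean of the other 4 gates by edgeR's quasi-likelihood test with the library as a block. Levels are UMIs per 1000000 UMIs of a sum (CPM), and a gene was called at a Benjamini-Hochberg adjusted p under 0.05 over all 8531 genes tested. Of the members, 9 were tested, as Adamts4 was too low. Of 45 comparisons of a member and a gate, 23 were called, 10 higher and 13 lower, and 8 of the 9 members had at least 1 call. Of these 23, 22 had the same direction in all 3 libraries. The test was made on the same libraries and favours differences that repeat over them, so that this count is no separate support. When only cells with exactly 1 gate gene were kept, 13 of the 23 calls were lost and 1 turned direction. That setting left out 106 of 145, 25 of 35 and 33 of 50 FDC-gate cells, among them every cell with Madcam1. It also left out 33 of 50, 12 of 16 and 11 of 17 MRC-gate cells. The MRC sums of 2-IC replicate 2 and of the 1-IC library then fell under the limit of 10 cells and were not fitted. The part of the missing cells and sums in the lost calls was not tested. Without the library as a block 16 were lost, and the 7 that remained were Mmp2, Adamts1 and Timp3 in the MedRC gate, Adamts5 in the TBRC gate and Timp3, Mmp3 and Adamts5 in the FDC gate. The FDC gate had the most calls. It was higher for 1 of 9 members, where 11.9% of all genes were called higher, and lower for 7 of 9, where 9.04% of all genes were called lower. The MRC gate was higher for 1 of 9 (2.73% of all genes) and lower for 4 (2.54% of all genes). The IFRC gate was higher for 1 (2.82% of all genes) and lower for 1 (2.5% of all genes). The TBRC gate was higher for 3 (5.52% of all genes) and lower for none, where edgeR called 3.16% of all genes lower, 1 member had an unadjusted p under 0.05 in that direction and DESeq2 called 0. The MedRC gate was higher for 4 (8.03% of all genes) and lower for 1 (5.56% of all genes). The median log2 fold change over the 9 members was -0.50 in the FDC gate, -0.22 in the MRC gate, 0.09 in the IFRC gate, 0.44 in the TBRC gate and 0.46 in the MedRC gate, whereas the median over all genes tested lay between -0.01 and 0.02. From a sum alone, fewer cells with a transcript and less of it per cell cannot be told apart.

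**Figure D1:**
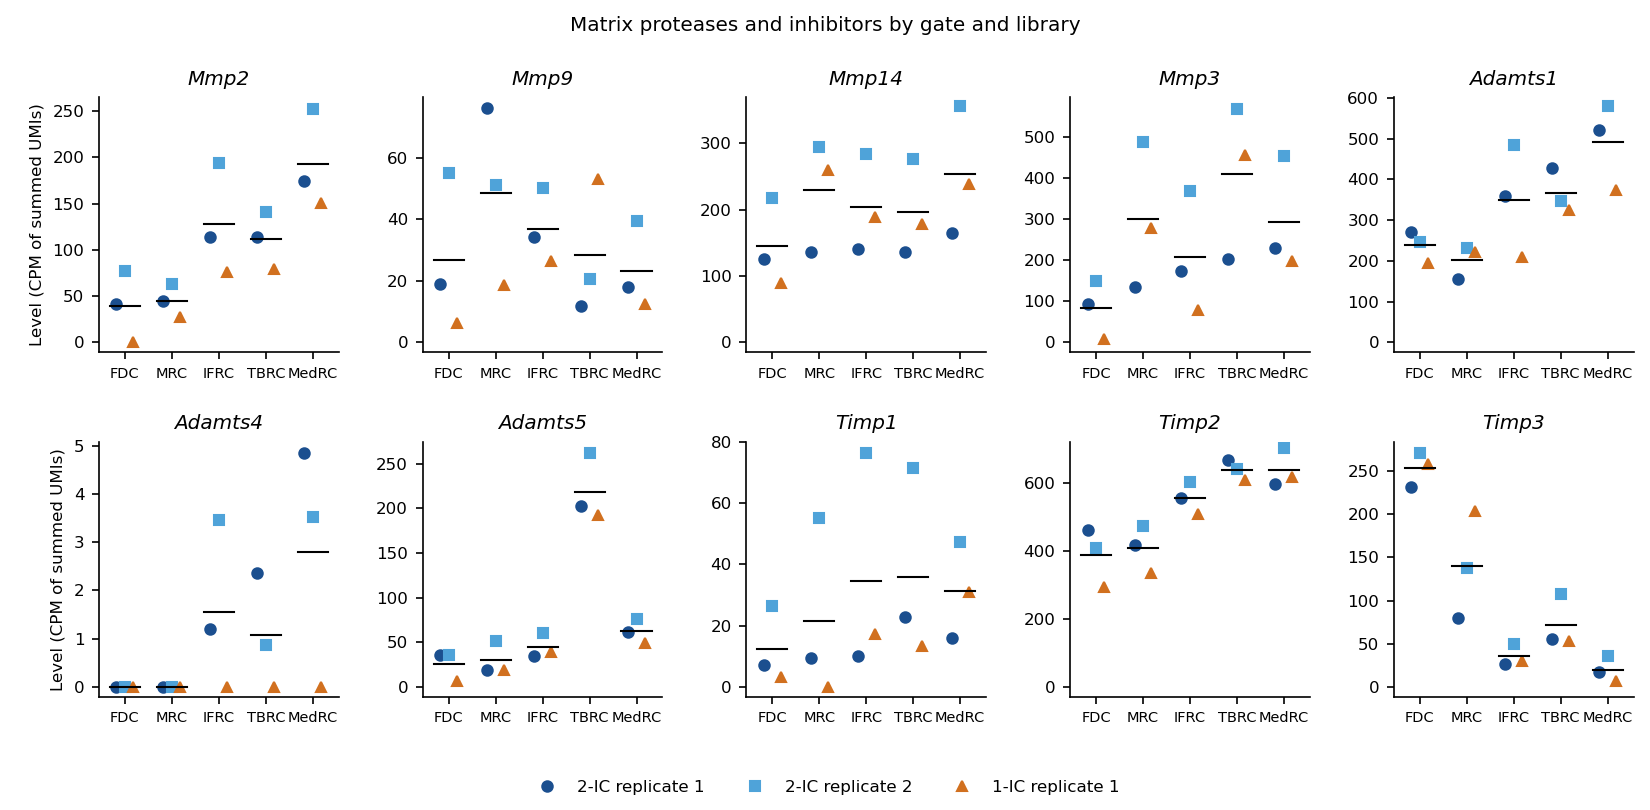
CPM of the 10 members (vertical axes, from 0 and different for each gene) in the 5 gates, with 1 point for each library and a line at the mean of the 3 libraries. Timp3 stands apart from the other gates in the FDC gate, and Adamts5 in the TBRC gate.

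**Figure D2:**
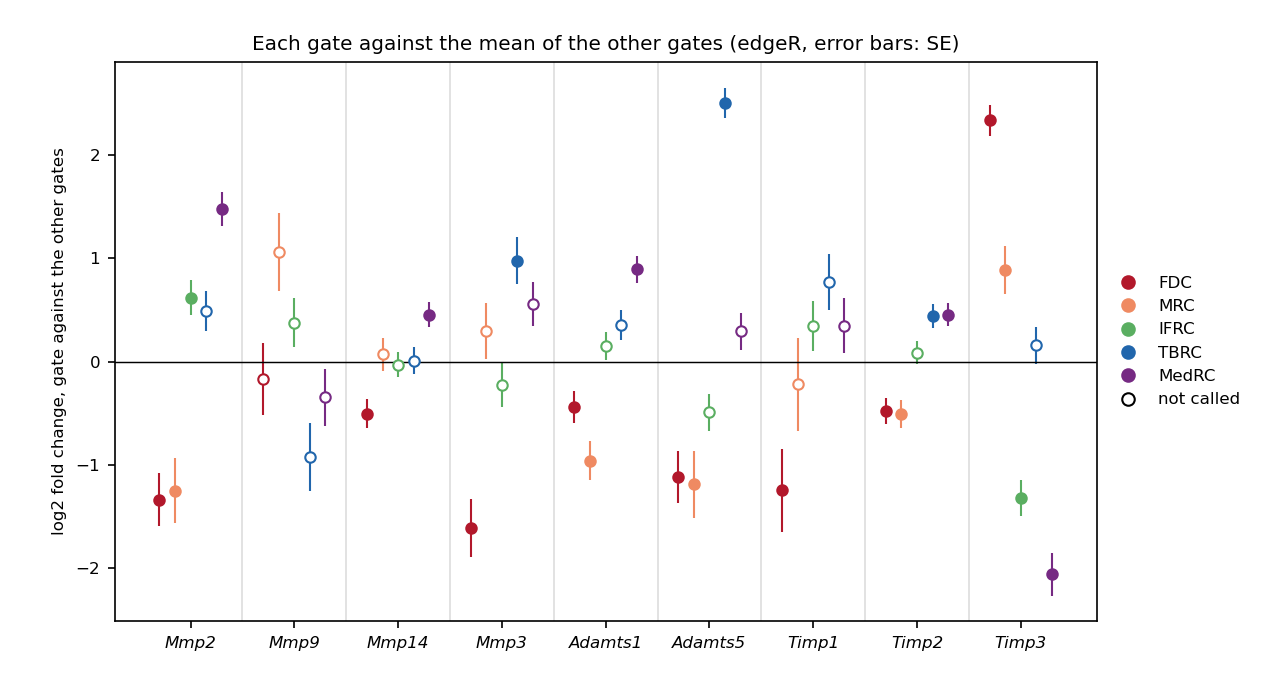
Log2 fold change of each gate against the mean of the other gates for the 9 members tested, from edgeR, with error bars of 1 SE and filled points for an adjusted p under 0.05. Timp3 was highest in the FDC gate at 2.34 and lowest in the MedRC gate at -2.06.

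Among the 9 members tested, Timp3 had the widest span of fold changes over the 5 gates, from the FDC gate down to the MedRC gate. TIMP3 is the inhibitor that stays bound to the matrix, and it blocks ADAM and ADAMTS proteases as well as matrix metalloproteinases. In the FDC gate Timp3 was at 232, 271 and 258 CPM. In the MRC gate it was at 79.3, 138 and 204 CPM, and in the TBRC gate at 55.7, 108 and 53.0 CPM. The IFRC gate held 26.6, 49.2 and 29.6 CPM, and the MedRC gate 17.2, 36.1 and 6.18 CPM. Every FDC value thus lay above every value of the other gates, and the ranges of the TBRC and IFRC gates were also apart, whereas those of MRC and TBRC and of IFRC and MedRC overlapped. The mean in the FDC gate, 254 ± 19.99 CPM (SD, n = 3), was 3.80 times the mean of the other gates (log2 fold change 2.34, SE 0.15, edgeR adjusted p = 1.59e-12). Timp3 was lower in the IFRC gate (log2 fold change -1.32, SE 0.18, edgeR adjusted p = 2.41e-05) and the MedRC gate (-2.06, SE 0.21, edgeR adjusted p = 9.69e-08). The IFRC call was lost with exactly 1 gate gene (-0.95, edgeR adjusted p = 0.0994) and without the block (edgeR adjusted p = 0.109). In the MRC gate it was called higher (0.89, SE 0.23, edgeR adjusted p = 0.0190), on the scale of the fit, which averages logs. On the scale of CPM it was above the mean of the other gates in 2 of 3 libraries, and the call was lost without 2-IC replicate 1 (1.10, edgeR adjusted p = 0.0595), without 2-IC replicate 2 (1.06, edgeR adjusted p = 0.0588) and without the 1-IC library (0.61, edgeR adjusted p = 0.185).

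Timp3 UMIs were found in 45.5% of FDC-gate cells of the first 2-IC library (exact binomial 95% interval 37.2% to 54.0%), 57.1% in the other (39.4% to 73.7%) and 66.0% in the 1-IC library (51.2% to 78.8%). B cell barcodes, which should lack the gene, held a Timp3 UMI in 0.346%, 1.64% and 1.23% of cells. The median depth was 5166, 10091 and 4836.5 UMIs in the FDC gate and 3393, 5804 and 3141 UMIs in the B cell barcodes. With each cell thinned to 2000 UMIs, which left out 33 of the 230 FDC-gate cells, the shares in the FDC gate were 33.9%, 29.4% and 35.7%. The libraries thus lay close together once depth was equal, and far above B cells. Those B cell barcodes were chosen to hold no Col1a2 or Col3a1, a choice that can also lower other stromal RNA in them. The binomial intervals cover counting error only.

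Beside this result, some genes from the lists of other cells also differed in the FDC gate. Cd74, from the B cell list, and Lyz2, from the macrophage list, were higher there (log2 fold change 0.60 and 1.18, edgeR adjusted p = 0.00105 and 0.0413). The other tested genes of these lists were not called there. They were Ighm (-0.09, edgeR adjusted p = 0.877), Igkc (-0.17, edgeR adjusted p = 0.662) and Tyrobp (1.14, edgeR adjusted p = 0.179). The summed macrophage and dendritic cell list was at 67.2 to 156 CPM in the FDC gate and 6.63 to 124 CPM in the other gates, and the summed B cell list at 576 to 1328 CPM against 365 to 1465 CPM. Cd79a and Cd79b, which the filter on contaminant genes used, had 0 UMIs in the FDC gate, and Ms4a1 had 1 to 4 UMIs in a library. In the 1-IC library the FDC gate also held 240 CPM of the neutrophil list, all from S100a8, S100a9 and Retnlg, with Ly6g and Csf3r at 0. Their part in the result was not tested. B cell barcodes held at most 10.1 CPM of Timp3. The 31 myeloid barcodes held 2 UMIs in all, and a count of 0 there allows 39.5 to 55.9 CPM in a library. Those of 2-IC replicate 1 also held 15104 CPM of the summed stroma list (such as Pdpn and Cxcl13), and so were not free of stromal RNA. Timp3 overlaps Syn3 on the other strand, and Syn3 was at 11.8 CPM at most in these sums. FDC-gate cells with Malat1 under 1% of their UMIs, a sign of lost nuclear RNA, held 135, 82.0 and 145 CPM of Timp3, against 251, 303 and 282 CPM in the rest. Without them the log2 fold change was 2.46. Without the filter on contaminant genes it was 1.05 (edgeR adjusted p = 0.00146), a setting in which Cr2-positive B cells can enter the FDC gate, since Cr2 was found in 28.4% to 60.7% of B cell barcodes. The part of B cells in that value was not tested.

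Timp2, which blocks matrix metalloproteinases and also takes part in the activation of proMMP2 by MMP14, was expressed in every gate. The FDC gate held 463, 408 and 293 CPM of Timp2, and the MRC gate 416, 472 and 334 CPM. The values were 554, 602 and 510 CPM in the IFRC gate, 667, 640 and 610 CPM in the TBRC gate and 597, 701 and 618 CPM in the MedRC gate. The IFRC values lay above all MRC values, and the neighbouring gates otherwise overlapped in their ranges. Timp2 was lower in the FDC gate (log2 fold change -0.48, edgeR adjusted p = 0.00573) and the MRC gate (-0.51, edgeR adjusted p = 0.0232), and higher in the TBRC gate (0.44, edgeR adjusted p = 0.0145) and the MedRC gate (0.46, edgeR adjusted p = 0.00528). The MRC call was lost without 2-IC replicate 1 (-0.48, edgeR adjusted p = 0.313) and without the 1-IC library (-0.45, edgeR adjusted p = 0.0843), and the TBRC call without 2-IC replicate 1 (0.39, edgeR adjusted p = 0.353). Timp2 overlaps Cep295nl on the same strand, so that shared reads cannot be assigned with certainty, but Cep295nl was at no more than 9.52 CPM in the sums.

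Timp1, an inducible inhibitor found in many inflamed tissues, was low in all gates. It ranged from 3.11 to 26.4 CPM in the FDC gate, 0 to 55.1 CPM in the MRC gate, 9.92 to 76.4 CPM in the IFRC gate, 13.3 to 71.4 CPM in the TBRC gate and 15.8 to 47.5 CPM in the MedRC gate. In every gate the highest value came from 2-IC replicate 2, and the ranges of all gates overlapped. Timp1 was called lower in the FDC gate (log2 fold change -1.25, SE 0.40, edgeR adjusted p = 0.0267). The call rested on 18 UMIs in the FDC gate over the 3 libraries, and it was lost without 2-IC replicate 1 (-1.34, edgeR adjusted p = 0.0723), without 2-IC replicate 2 (-1.19, edgeR adjusted p = 0.225) and without the 1-IC library (-1.15, edgeR adjusted p = 0.0509). Timp1 lies inside Syn1, which is on the other strand and had 0 UMIs in all sums.

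The gates therefore differed in their makeup of inhibitors. Each RNA gives tags from its 3' end whatever its length, and shares were compared between gates but not between genes. The TIMPs made up 54.4%, 47.4% and 64.3% of the summed CPM of the members in the FDC gate. They made up 34.9%, 30.8% and 39.0% in the MedRC gate. In each library the share was highest in the FDC gate. Timp3 was 39.4 ± 6.84% of the inhibitor CPM in the FDC gate, 24.8 ± 11.7% in the MRC gate, 9.48 ± 3.16% in the TBRC gate, 5.53 ± 1.15% in the IFRC gate and 2.76 ± 1.83% in the MedRC gate (SD, n = 3). The summed protease CPM was 559 ± 238 in the FDC gate and 1320 ± 391 in the MedRC gate, whereas the summed inhibitor CPM was 654 ± 86.1 and 690 ± 82.9. The higher inhibitor share in the FDC gate thus went with a lower protease sum. These sums were described without a test.

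**Figure D3:**
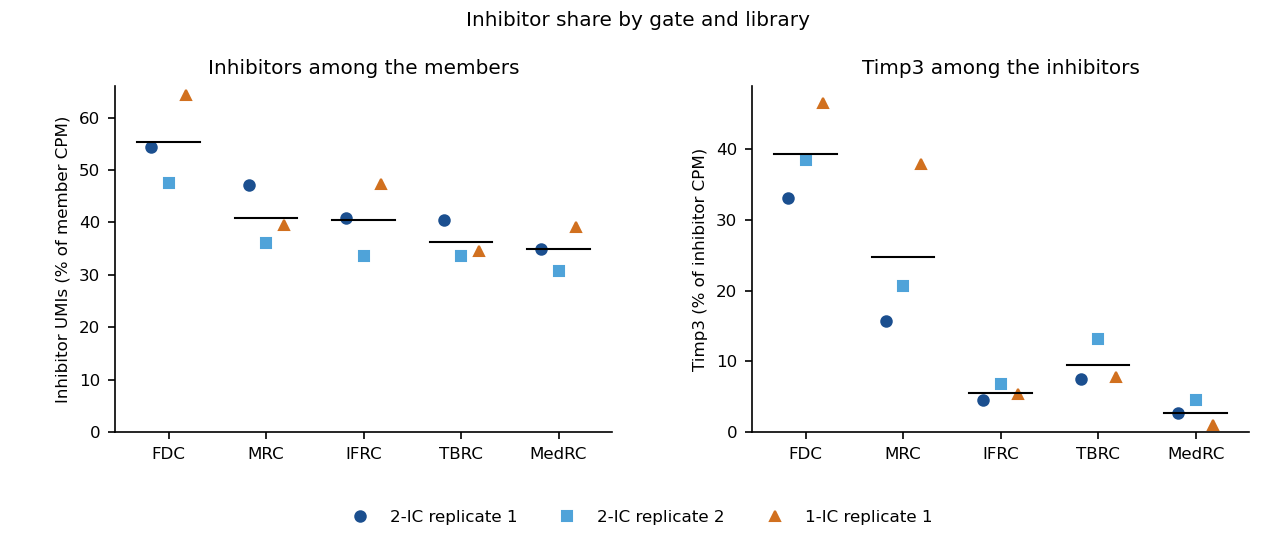
Share of Timp1, Timp2 and Timp3 in the summed CPM of the 10 members (left, percent) and share of Timp3 in the summed CPM of the 3 inhibitors (right, percent) in the 5 gates, with 1 point for each library and a line at the mean. Both shares were highest in the FDC gate, at 55.4% and 39.4% on average.

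Mmp2 encodes gelatinase A, which cuts denatured collagen and basement membrane collagen. It was at 174, 252 and 150 CPM in the MedRC gate. The IFRC gate held 114, 194 and 76.4 CPM and the TBRC gate 114, 141 and 79.5 CPM, both above the MRC gate with 44.4, 63.0 and 27.8 CPM. In the FDC gate Mmp2 was at 41.4 and 76.7 CPM in the 2-IC libraries, and 0 UMIs were found in the 1-IC library, which allows up to 9.34 CPM. The TBRC and MRC ranges were apart and the other neighbours overlapped, although MedRC was above IFRC in each library. Mmp2 was higher in the MedRC gate (log2 fold change 1.48, SE 0.17, edgeR adjusted p = 5.35e-07) and lower in the FDC gate (-1.34, SE 0.25, edgeR adjusted p = 2.16e-04). The FDC call was lost with cells thinned to 2000 UMIs (-1.21, edgeR adjusted p = 0.209). The calls in the MRC gate (-1.25, SE 0.31, edgeR adjusted p = 0.0142) and the IFRC gate (0.62, SE 0.17, edgeR adjusted p = 0.0280) were weaker. The MRC call was lost without 2-IC replicate 1 (-1.22, edgeR adjusted p = 0.224) and without 2-IC replicate 2 (-1.26, edgeR adjusted p = 0.126), as was the IFRC call (0.70, edgeR adjusted p = 0.238, and 0.57, edgeR adjusted p = 0.274). Mmp2 UMIs were found in 49.0%, 81.3% and 50.6% of MedRC-gate cells, and in 24.3%, 29.3% and 27.6% at 2000 UMIs per cell. B cell barcodes held one in at most 1.04%. At 2000 UMIs per cell, the mean share was 27.1 ± 2.54% in the MedRC gate (SD, n = 3). It was 25.5 ± 9.78% in the IFRC gate and 20.5 ± 5.35% in the TBRC gate. The share of cells with Mmp2 was thus no trait of the MedRC gate alone. Ighm and Igkc, which encode antibody chains, were also higher in the MedRC gate (log2 fold change 1.01 and 0.68, edgeR adjusted p = 0.00121 and 0.0188). Cd74, the only other gene of the B cell list that was tested, was lower there (-0.43, edgeR adjusted p = 0.0333). The part of B cell RNA in the results of the MedRC gate was not tested.

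Within the IFRC and TBRC gates, Mmp2, Mmp3 and Adamts1 were higher in cells with Inmt. IFRC-gate cells with an Inmt UMI held 137, 216 and 122 CPM of Mmp2, and those without it 64.0, 103 and 17.8 CPM. In the TBRC gate the values were 145, 165 and 120 CPM with Inmt and 60.0, 92.6 and 29.7 CPM without. Mmp3 was at 184, 398 and 114 CPM with Inmt and 156, 252 and 35.6 CPM without in the IFRC gate, and at 220, 716 and 527 CPM against 174, 280 and 371 CPM in the TBRC gate. Adamts1 was at 386, 489 and 272 CPM with Inmt and 300.1, 461 and 128 CPM without in the IFRC gate, and at 507, 363 and 527 CPM against 291, 314 and 74.2 CPM in the TBRC gate. These 3 genes were picked for being higher with Inmt in each of 3 libraries in both gates. The share of all genes that did the same was not counted. In the IFRC gate, Timp3 went the other way, at 21.5, 17.2 and 22.2 CPM with Inmt and 37.7, 180 and 39.2 CPM without. Mmp9 did so too, at 24.9, 47.3 and 16.6 CPM against 54.0, 61.5 and 39.2 CPM. Neither had a common direction in the TBRC gate. Some of these splits were small. In the TBRC gate of the 1-IC library 9 cells stood against 10, with 10 against 2 UMIs of Mmp2. For Adamts1 it was 44 against 5 UMIs there, and a single cell held 27 of the 44. In the IFRC gate of 2-IC replicate 2, a single cell held 288 of the 741 Mmp3 UMIs with Inmt. Cells with Inmt were also deeper in each library of both gates, with medians of 6290.5 and 5354 UMIs in the IFRC gate of 2-IC replicate 1. The part of depth was not tested.

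Mmp14 encodes the membrane-bound protease MT1-MMP, which cuts fibrillar collagen and activates proMMP2. It was at 125, 218 and 90.3 CPM in the FDC gate, 136, 295 and 259 CPM in the MRC gate and 141, 283 and 189 CPM in the IFRC gate. The TBRC gate held 136, 276 and 179 CPM and the MedRC gate 165, 356 and 239 CPM. All gates overlapped, but the FDC gate was the lowest and the MedRC gate was above the mean of the others in each library. Mmp14 was lower in the FDC gate (log2 fold change -0.50, SE 0.14, edgeR adjusted p = 0.0104) and higher in the MedRC gate (0.46, SE 0.12, edgeR adjusted p = 0.00894). The FDC call was lost without 2-IC replicate 2 (-0.55, edgeR adjusted p = 0.0518) and without the 1-IC library (-0.33, edgeR adjusted p = 0.149), and the MedRC call without 2-IC replicate 1 (0.54, edgeR adjusted p = 0.0708) and without 2-IC replicate 2 (0.46, edgeR adjusted p = 0.0762).

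Mmp3 encodes stromelysin 1, which cuts proteoglycans and fibronectin and activates other proenzymes. It was at 94.6, 149 and 9.34 CPM in the FDC gate, the last from 3 UMIs. The TBRC gate held 203, 570 and 457 CPM, the MRC gate 136, 488 and 278 CPM and the MedRC gate 229, 456 and 198 CPM. The IFRC gate lay lower in the 1-IC library, with 175, 369 and 79.5 CPM. Mmp3 was thus lowest in the FDC gate of each library. It was lower in the FDC gate (log2 fold change -1.61, SE 0.28, edgeR adjusted p = 7.47e-05) and higher in the TBRC gate (0.98, SE 0.23, edgeR adjusted p = 0.00476). The FDC call was lost with exactly 1 gate gene (-2.06, edgeR adjusted p = 0.181), and the TBRC call without 2-IC replicate 2 (1.12, edgeR adjusted p = 0.0516) and with DESeq2 (1.24, adjusted p = 0.112).

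Mmp3 was also the most unevenly spread of the well expressed members. In the 14 sums with at least 20 UMIs, the 10% of cells with the most UMIs held between 57.9% and 95.3% of the Mmp3 UMIs, with a median of 81.7%. For Timp2 this share was 25.0% to 47.1%, and for Mmp14 the median was 37.2%. In the IFRC gate of 2-IC replicate 2, 1 of 135 cells held 288 of the 856 Mmp3 UMIs. A sum of Mmp3 therefore rested on few cells.

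Mmp9 encodes gelatinase B, which is best known from neutrophils and macrophages. It was at 76.2, 51.2 and 18.5 CPM in the MRC gate, 34.1, 50.1 and 26.5 CPM in the IFRC gate and 18.9, 55.2 and 6.23 CPM in the FDC gate. The TBRC gate held 11.8, 20.6 and 53.0 CPM, and the MedRC gate 18.0, 39.6 and 12.4 CPM. The MRC and IFRC gates were each above the MedRC gate in all 3 libraries, while the order of the other gates varied. edgeR called Mmp9 in 0 of the 5 gates, DESeq2 called 0, and 2 of the 5 had an unadjusted p under 0.05. Those were the MRC gate (log2 fold change 1.06, SE 0.38, edgeR adjusted p = 0.118) and the TBRC gate (-0.92, SE 0.33, edgeR adjusted p = 0.0810). Mmp9 UMIs were found in 26.0%, 43.8% and 11.8% of MRC-gate cells, against 0%, 4.92% and 0.613% of B cell barcodes. At 2000 UMIs per cell they were in 8.89%, 0% and 13.3% of MRC-gate cells. The myeloid barcodes, 12, 5 and 14 cells, held 0 Mmp9 UMIs, and so few cells say little about its level there.

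Adamts1 and Adamts5 are neighbours on chromosome 16, both on the minus strand and 53059 bases apart, and both cut aggregating proteoglycans such as versican. Adamts5 was at 202, 262 and 192 CPM in the TBRC gate. The MedRC gate held 61.6, 75.6 and 49.5 CPM, the IFRC gate 34.5, 60.4 and 39.0 CPM, the MRC gate 19.0, 51.2 and 18.5 CPM and the FDC gate 35.5, 36.0 and 6.23 CPM. The TBRC values did not overlap with any other gate, and the ranges of the other neighbours overlapped. The mean of 219 ± 37.9 CPM (SD, n = 3) was 5.39 times that of the other gates (log2 fold change 2.51, SE 0.15, edgeR adjusted p = 9.27e-12). Adamts5 was lower in the FDC gate (-1.12, SE 0.25, edgeR adjusted p = 0.00134) and the MRC gate (-1.19, SE 0.32, edgeR adjusted p = 0.0248). The MRC call was lost without 2-IC replicate 1 (-0.77, edgeR adjusted p = 0.410), and the FDC call with exactly 1 gate gene (-2.73, edgeR adjusted p = 0.0517) and with cells thinned to 2000 UMIs (-0.91, edgeR adjusted p = 0.392).

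Adamts5 UMIs were found in 89 of 178, 40 of 59 and 9 of 19 TBRC-gate cells, and in 27.4%, 36.8% and 26.3% at 2000 UMIs per cell. B cell barcodes held one in 0%, 1.64% and 0% of cells, where 0 allows up to 1.04% and 1.84%. TBRC-gate cells held 198, 318 and 59.8 CPM of Adamts5 with an Inmt UMI and 210, 152 and 356 CPM without. The direction of this split thus differed between libraries.

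Adamts1 was highest in the MedRC gate, with 521, 580 and 375 CPM. The TBRC gate held 428, 347 and 325 CPM, the IFRC gate 359, 484 and 209 CPM, the FDC gate 272, 247 and 196 CPM and the MRC gate 155, 232 and 222 CPM. The MedRC gate was above every other gate in each library, although its range overlapped with those of TBRC and IFRC. Adamts1 was higher in the MedRC gate (log2 fold change 0.90, SE 0.13, edgeR adjusted p = 1.89e-05) and lower in the MRC gate (-0.96, SE 0.19, edgeR adjusted p = 0.00155) and the FDC gate (-0.44, SE 0.16, edgeR adjusted p = 0.0446). The MRC call was lost without 2-IC replicate 1 (-0.65, edgeR adjusted p = 0.231). The FDC call was lost without 2-IC replicate 1 (-0.52, edgeR adjusted p = 0.135), without 2-IC replicate 2 (-0.35, edgeR adjusted p = 0.189) and without the 1-IC library (-0.46, edgeR adjusted p = 0.0632), and its direction turned when only cells with exactly 1 gate gene were kept (0.57, edgeR adjusted p = 0.201). It was also lost with DESeq2 (-0.44, adjusted p = 0.0879) and without cells that held Malat1 at under 1% of UMIs (-0.36, edgeR adjusted p = 0.128). Such cells were 63 of 230 in the FDC gate and 99 of 633 in the MedRC gate, and in the FDC gate they held 270, 16.4 and 18.2 CPM of Adamts1 against 273, 287 and 233 CPM in the rest. The part of RNA quality in this result was not tested.

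Early response genes, which rise soon after stress or tissue digestion, mostly shared the direction of Adamts1 in the MedRC and FDC gates. Mmp2, Mmp14 and Timp2 were also called higher in the MedRC gate and lower in the FDC gate. The listed Hspa1b went the other way, higher in the FDC gate (log2 fold change 0.86, edgeR adjusted p = 0.00171) and the MRC gate (0.96, edgeR adjusted p = 0.00637). Of the 13 listed, 11 were higher in the MedRC gate and 11 lower in the FDC gate, with medians of 0.84 and -0.70 on the log2 scale against medians near 0 for all genes tested. Of all genes tested, 8.03% were higher in the MedRC gate and 9.04% lower in the FDC gate. Ier3 (log2 fold change 1.39, edgeR adjusted p = 2.13e-06), Junb (1.23, edgeR adjusted p = 1.63e-05) and Atf3 (1.19, edgeR adjusted p = 2.79e-04) were the listed genes with the largest differences. The sum of the list was 31889 to 35289 CPM in the MedRC gate and 11233 to 18265 CPM in the FDC gate, and none of the 13 genes was at 0. The part of tissue digestion in the results of Adamts1, Mmp2, Mmp14 and Timp2 was not tested.

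Adamts4, a related aggrecanase, was near the limit of detection. It had 0 UMIs in the FDC and MRC gates of all libraries and in all gates of the 1-IC library. The 2-IC libraries held 11 and 4 UMIs in the MedRC gate, 3 and 8 in the IFRC gate and 3 and 1 in the TBRC gate. In the FDC gate 0 UMIs allow up to 3.55, 7.20 and 9.34 CPM. No difference was detectable at this depth.

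The FDC gate itself was not uniform. Madcam1, an adhesion molecule of MRCs that many FDCs also carry, was found in 56 of 145, 16 of 35 and 32 of 50 FDC-gate cells. Adamts1 was at 119, 11.02 and 91.9 CPM in FDC-gate cells with Madcam1 and at 395, 429 and 502 CPM in those without it, so that the ranges were apart. The level without Madcam1 leaned on single cells. In the 1-IC library a single cell held 31 of the 41 UMIs of 18 cells, and in 2-IC replicate 2 a single cell held 32 of 101. Adamts5 was at 5.31, 0 and 0 CPM with Madcam1 and 59.7, 63.7 and 24.5 CPM without. These values rested on 2, 0 and 0 UMIs with Madcam1 and 28, 15 and 2 UMIs without. The counts of 0 allow up to 16.5 and 12.5 CPM, and the 1-IC library says little on the direction. Timp2 was at 374, 275 and 221 CPM with Madcam1 and 533, 510 and 502 CPM without, again lower in each library. Mmp14 was at 117, 121 and 83.5 CPM with Madcam1 and 132, 293 and 110 CPM without, and Mmp2, with 0 UMIs in the 1-IC library, was at 10.6 and 5.51 CPM against 66.1 and 132 CPM in the 2-IC libraries. Timp3 did not follow this pattern. It was at 234, 165 and 188 CPM with Madcam1 and 230, 353 and 465 CPM without, and hence lower in 2 of 3 libraries. Mmp3 was at 10.6, 165 and 12.5 CPM with Madcam1 and 162, 136 and 0 CPM without, with no common direction. The subsets differed in depth, with medians of 6138.5 and 5028 UMIs with and without Madcam1 in 2-IC replicate 1, 9077 and 13430 in 2-IC replicate 2 and 7127.5 and 2668 in the 1-IC library. Mmp9 and Timp1 also had no common direction. These differences were described without a test, and the share of all genes that were lower with Madcam1 in all 3 libraries was not counted. Cells with Madcam1 were left out in the setting with exactly 1 gate gene, in which Adamts1 in the FDC gate turned direction.

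**Figure D4:**
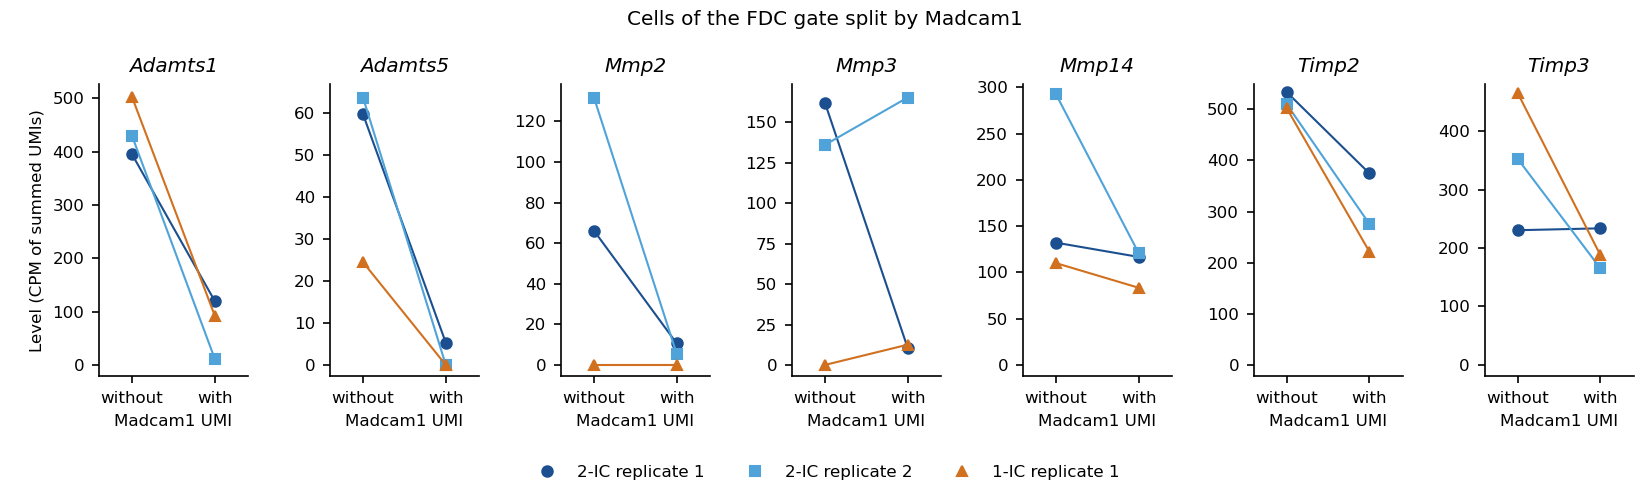
CPM of 7 members (vertical axes, from 0 and different for each gene) in FDC-gate cells without and with a Madcam1 UMI, with 1 line for each library. Adamts1, Adamts5, Mmp14 and Timp2 were lower with Madcam1 in all 3 libraries, but Adamts5 in the 1-IC library rested on 0 against 2 UMIs. The share of all genes that were lower in all 3 libraries was not counted. Mmp14 differed little in 2-IC replicate 1 (117 with against 132 CPM without Madcam1). In the 1-IC library Mmp14 rested on 20 UMIs with and 9 without Madcam1.

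The time points were set side by side within each gate. As the 1-IC group had 1 library, no test was made, and members at least 2-fold apart from both 2-IC libraries were counted among the 30 pairs of a member and a gate that reached 50 CPM in a library of each comparison. The 1-IC library was higher in 1 of 30 pairs, where 2.85% of all 15984 pairs were higher, and lower in 3 of 30, where 4.05% of all pairs were lower. Mmp3 was lower in the FDC gate (9.34 against 94.6 and 149 CPM) and the IFRC gate (79.5 against 175 and 369 CPM). Mmp9 was lower in the MRC gate (18.5 against 76.2 and 51.2 CPM) and higher in the TBRC gate (53.0 against 11.8 and 20.6 CPM). Of the 4 pairs, 3 reached 50 CPM only on the side where they were high, all but Mmp3 in the IFRC gate, so that the counts are a description and support nothing. Of these 1-IC values, those of Mmp9 rested on 2 and 8 UMIs and those of Mmp3 on 3 and 51. Timp3, Adamts5 and Mmp2 were not among these pairs in the gates where they were highest.

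The other genes of matrix turnover were taken from lists of the same families and of substrates. Of 15 substrates, 11 were tested, and 10 were lower in the FDC gate, 9 higher in the TBRC gate and 8 higher in the MedRC gate. Of all genes tested, 9.04% were lower in the FDC gate, 5.52% higher in the TBRC gate and 8.03% higher in the MedRC gate. Col4a1, a basement membrane collagen, was at 174 ± 131 CPM in the FDC gate and 700 ± 450 CPM in the TBRC gate (FDC log2 fold change -1.61, edgeR adjusted p = 7.3e-07). Col3a1, a fibrillar collagen, was at 533 ± 361 and 1724 ± 547 CPM (-1.52, edgeR adjusted p = 6.63e-06), and Thbs1, an adhesive glycoprotein, at 99.3 ± 76.3 and 485 ± 394 CPM (-1.53, edgeR adjusted p = 2.86e-05), each with SD and n = 3. Substrates were thus lower in the FDC gate, as were 5 of the 6 proteases tested. The median log2 fold change of the substrates was -1.22 there, 0.81 in the TBRC gate and 0.56 in the MedRC gate.

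Of 11 other inhibitors, 7 were tested. In the FDC gate 1 was higher (11.9% of all genes) and 4 lower (9.04% of all genes). In the TBRC gate 4 were higher (5.52% of all genes), and in the MedRC gate 3 (8.03% of all genes). Spint2, a membrane inhibitor of serine proteases, was at 365 ± 208 CPM in the FDC gate and 57.0 ± 45.1 CPM in the MRC gate (FDC log2 fold change 4.66, edgeR adjusted p = 3.83e-17). Serpinh1, a collagen chaperone with a serpin fold, was lower in the FDC gate (-1.37, edgeR adjusted p = 1.23e-07), and Serpinf1, a secreted serpin, in the MRC gate (-1.96, edgeR adjusted p = 2.45e-04). Spint2 was thus the only listed inhibitor beside Timp3 that was higher in the FDC gate in this fit. A count of 1 of 7 is close to the share of all genes and says little about inhibitors as a group.

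Of the other proteases, those with too few UMIs were not tested. Of 14 other MMPs, 2 passed the filter on low counts, and Mmp19 was lower in the FDC gate (log2 fold change -1.88, edgeR adjusted p = 1.8e-04) while Mmp23 was lower in the MedRC gate (-0.53, edgeR adjusted p = 0.00227). Of 21 other ADAMTS and ADAMTS-like genes, 7 were tested. Of these, 2 were lower in the FDC gate (9.04% of all genes) and 2 higher in the TBRC gate (5.52% of all genes). Adamts20 was higher in the TBRC gate (1.44, edgeR adjusted p = 8.78e-05), as Adamts5 was, and Adamts17 (-1.55, edgeR adjusted p = 0.00549) and Adamts13 (-1.54, edgeR adjusted p = 0.0226) were lower in the FDC gate. Of 16 activators and other proteases, 11 were tested. In the FDC gate 2 were higher (11.9% of all genes) and 4 lower (9.04% of all genes). Bmp1, which trims procollagens (-1.46, edgeR adjusted p = 0.00477), and Fap, a membrane serine protease of fibroblasts (-1.32, edgeR adjusted p = 1.54e-05), were lower in the FDC gate, and Htra3, a secreted serine protease, was lower in the MRC gate (-1.97, edgeR adjusted p = 0.00555).

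To find genes with a like pattern, Pearson's r was taken over the 15 sums after the mean of each library was removed, among 2988 genes with a mean of at least 50 CPM. These sums share libraries and differ in depth, and r is given as a description. Timp3 was most alike to Vcam1 (r = 0.96), Cilp (0.96) and Spint2 (0.95). Mmp2 was most alike to Gas1 (0.98), Selenop (0.98) and Svep1 (0.97), Mmp14 to Sat1 (0.92), Aoc3 (0.91) and Arid5b (0.90), and Mmp3 to Nfic (0.96), Snx18 (0.94) and Prelp (0.92). The genes most alike to Adamts5 were the ribosomal protein genes Rps7 (0.95), Rps20 (0.93) and Rpl37a (0.93). Adamts1 had less close neighbours in Tmem159 (0.87), Gaa (0.86) and Lrp6 (0.85), and Mmp9 the least close in Nudcd3 (0.79), Polr2c (0.78) and Thap12 (0.78). Timp1 was most alike to Tnfaip6 (0.94), Thra (0.93) and Deptor (0.93), and Timp2 to Il11ra1 (0.98) and Gas6 (0.97). Among the members, Mmp2 and Timp2 went together (r = 0.86), and so did Mmp14 and Mmp3 (0.83). Timp3 ran opposite to Mmp2 and Timp2 (r = -0.81 with each).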

How the data were processed

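The authors sequenced sorted LN stromal cells in 3 libraries (10x Genomics 3' v3), aligned the reads to GRCm38 with Cell Ranger (version 5.0.0 in the file headers) and deposited raw UMI counts per gene and barcode, without normalization. The tags of the 2-IC libraries (Biotin24h and Biotin7d) differ, and groups were taken from the treatment in the titles. With the library as a block, p-values measure how far the differences between gates vary from library to library, not the spread between library means. The map of mice to libraries was not clear, so that this variation may be technical.

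Barcodes with at least 200 genes, at most 10% mitochondrial UMIs and no UMI of 13 contaminant genes were retained, as in the study's methods. No doublet caller was run, and cells in the top 5% of UMIs were left out in an alternative. Sums of at least 10 cells per gate and library were fitted with edgeR 4.0.16 in R 4.3.3 (TMM, filterByExpr, quasi-likelihood test, library as a block, 8 residual degrees of freedom). SEs were derived from the F statistic. DESeq2 1.42.0 was an alternative, and the procedure was tested on simulated data. The sums held 16 to 461 cells. Time points were compared without a test, with a 2-fold limit. A count of 0 was taken to allow 3 counts.

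All 10 members are named, with up to 3 called genes of each list with the largest log2 fold change over the 5 gates, and the 3 genes most alike to each member, of which 1 is not reported here. Markers and other genes named beside a result were chosen after their values were seen. The members and lists were chosen with earlier results of these data known. Lists of T cell, neutrophil and endothelial markers had no gene that passed the filter. Of the stroma list, all 7 genes were tested. In the FDC gate 1 was higher (11.9% of all genes) and 4 lower (9.04% of all genes).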

Additional observations from a re-analysis of the deposited data

Results flagged for a closer look

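In 4 of 45 comparisons of a member and a gate (8.89%), the 1-IC library went one way and both 2-IC libraries the other. Over all genes tested, 18.7% of 42655 such comparisons were split in this way. The difference between the groups was not tested, as the 1-IC group had 1 library. For Mmp9 in the TBRC gate, the log2 ratio to the mean of the other gates was 1.74 in the 1-IC library and -1.65 and -1.25 in 2-IC replicates 1 and 2. For Mmp9 in the MRC gate it was -0.40 against 1.88 and 0.31. For Mmp3 in the MedRC gate it was -0.058 against 0.59 and 0.21, and for Adamts1 in the IFRC gate -0.42 against 0.06 and 0.46. The TBRC and MRC sums of Mmp9 in the 1-IC library held 8 and 2 UMIs.

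In 1 of 3 libraries, Timp1 was higher outside the gates than in any of them. In the retained cells of 2-IC replicate 2 without a gate gene, Timp1 was at 294 CPM (112 UMIs), where the highest sum of a gate was 76.4 CPM. Of these UMIs, 102 (91.1%) came from 2 of 55 cells. In the other libraries, the cells outside the gates held 20.7 and 6.34 CPM of Timp1, below the 22.7 CPM of the TBRC gate and the 30.9 CPM of the MedRC gate there. In 5 myeloid barcodes of 2-IC replicate 2, it was at 92.1 CPM from 7 UMIs.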

How the results depend on the processing

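Of the 23 calls, 5 held under all 15 alternatives tried: Mmp2, Adamts1 and Timp3 in the MedRC gate, Adamts5 in the TBRC gate and Timp3 in the FDC gate. Over 344 combinations of a call and an alternative, 256 kept direction and call, 87 kept direction only and 1 was reversed, Adamts1 in the FDC gate with exactly 1 gate gene (0.57). The number of calls fell to 12 with exactly 1 gate gene, to 15 of 35 with cells thinned to 2000 UMIs, where fewer comparisons were tested, and to 7 without the library as a block. It was 13 to 21 with 1 library left out, and 13 without 2-IC replicate 1. The pairs 2-fold apart between time points, 4 in the main setting, were 1 with a gate limit of 2 UMIs, 8 with exactly 1 gate gene, 2 without the filter on contaminant genes and 0 of 18 with at least 200 CPM. Thinning to 2000 UMIs lowered the mean share of cells with a UMI from 56.2% to 33.0% for Timp3 in the FDC gate, from 55.1% to 30.2% for Adamts5 in the TBRC gate, from 60.3% to 27.1% for Mmp2 in the MedRC gate and from 27.2% to 7.41% for Mmp9 in the MRC gate, as each cell then held fewer UMIs. Leaving out the shared barcodes, an alternative chosen after seeing the data, gave 23 calls, but of the original calls it kept 20 and lost Adamts1 in the FDC gate and Adamts5 and Timp2 in the MRC gate. For the other changes the cause was not tested. The block is the library itself, since its 5 sums share 1 suspension of cells. Depth limits Adamts4, Timp1 and Mmp9, and the smallest sums, which held 16 cells (MRC gate of 2-IC replicate 2), 17 cells (MRC gate of 1-IC) and 19 cells (TBRC gate of 1-IC).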
